A study of Mus musculus with 39 samples.

Results

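Of the 5591 regions with H3K4me1 outside promoters in DP cells, 382 carried H3K27ac in DP and Pdgfra+ cells but had no reproducible H3K27ac in Oct4+ cells and no H3K27me3 in DP cells. These 382 regions, 6.83% of the 5591 and a subset of 1850 DP active regions, are described here. They were selected on measured values. A consensus region was a merged interval with a peak in at least 2 of 3 libraries of a mark and population, and a promoter was taken as 1 kb before a transcription start site (TSS) and 100 bp after it. The H3K27ac of all 3 populations, the H3K4me1 of DP and the H3K27me3 of DP therefore chose the regions and are given below as a description, without a test.

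The data are CUT&Tag peak lists from naive extra-embryonic endoderm (nEnd), a stem cell culture that resembles the primitive endoderm of the mouse blastocyst, in a defined medium. All cells came from a single OCT4-mCherry reporter line without treatment, and were sorted on OCT4-mCherry and on PDGFRA stained with APC. The 3 populations were positive for OCT4-mCherry (Oct4+), for both markers (double positive, DP) or for PDGFRA (Pdgfra+). H3K4me1, H3K27ac, H3K27me3 and H3K9me3 were profiled in 3 replicates of each population (36 libraries), and nothing in the labels says whether replicates were separate cultures or sorts, so the p-values below measure the spread between libraries only.

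Enhancers are stretches of DNA, often far from the gene they act on, that bind transcription factors and raise transcription. H3K4me1 marks enhancers in general, H3K27ac those that are active, H3K27me3 chromatin silenced by Polycomb and H3K9me3 heterochromatin. Primitive endoderm is specified by GATA6, GATA4, SOX17 and their targets, and goes on to secrete basement membrane and take up nutrients by endocytosis, while OCT4 marks the pluripotent state and is kept for a time in early primitive endoderm.

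The number of reads behind each library is unknown, and the lists differed greatly in length, from 1074 to 16057 peaks for H3K4me1 and from 3079 to 65131 for H3K27ac. The Oct4+ H3K27ac lists held 38619, 65131 and 8574 peaks in replicates 1, 2 and 3. A listed peak within 20 kb of the Pou5f1 TSS, the gene for OCT4, was present for H3K27ac in 3 of 3 Oct4+, 1 of 3 DP and 1 of 3 Pdgfra+ libraries, and near Pdgfra in 0, 2 and 3. A missing peak cannot tell apart a lower mark in every cell, fewer marked cells in a sorted population and a list too short to hold it.

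Windows of 300 bp from 4 of the regions are shown to let the sequence be read beside its motifs. They are from GRCm38, on the plus strand, and capitals mark matches to any of the 12 motifs listed further below. The Creb3l2, Gata4 and Foxa2 windows were centred on the maximum of the strongest DP H3K27ac peak. For Myo6 that maximum lay outside the H3K4me1 region, and the window was moved to the DP H3K4me1 maximum. The Creb3l2 and Myo6 windows stand for the strongest region of their gene list, and Gata4 and Foxa2 were added after the values were seen.
Foxa2, chr2:148005120-148005419, in an intron of the noncoding gene 9030622O22Rik: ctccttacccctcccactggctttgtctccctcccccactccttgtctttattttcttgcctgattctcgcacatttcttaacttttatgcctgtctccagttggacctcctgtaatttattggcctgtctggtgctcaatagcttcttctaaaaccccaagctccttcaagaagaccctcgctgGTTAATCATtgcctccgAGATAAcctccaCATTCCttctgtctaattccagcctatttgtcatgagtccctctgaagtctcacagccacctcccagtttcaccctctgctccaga
Gata4, chr14:63344009-63344308, in an exon of the noncoding gene Gm5463: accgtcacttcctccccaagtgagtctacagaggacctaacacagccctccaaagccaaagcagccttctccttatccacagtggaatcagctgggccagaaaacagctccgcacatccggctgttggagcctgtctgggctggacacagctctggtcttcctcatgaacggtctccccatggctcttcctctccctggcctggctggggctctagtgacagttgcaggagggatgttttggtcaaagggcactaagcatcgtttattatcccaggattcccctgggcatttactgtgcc
Creb3l2, chr6:37399411-37399710, in an intron of the gene: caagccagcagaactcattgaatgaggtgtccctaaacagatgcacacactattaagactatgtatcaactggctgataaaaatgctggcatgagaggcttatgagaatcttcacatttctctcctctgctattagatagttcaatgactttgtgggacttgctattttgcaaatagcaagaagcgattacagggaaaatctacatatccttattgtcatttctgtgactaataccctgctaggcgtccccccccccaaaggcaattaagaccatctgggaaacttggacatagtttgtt
Myo6, chr9:80172192-80172491, in an intron of the gene: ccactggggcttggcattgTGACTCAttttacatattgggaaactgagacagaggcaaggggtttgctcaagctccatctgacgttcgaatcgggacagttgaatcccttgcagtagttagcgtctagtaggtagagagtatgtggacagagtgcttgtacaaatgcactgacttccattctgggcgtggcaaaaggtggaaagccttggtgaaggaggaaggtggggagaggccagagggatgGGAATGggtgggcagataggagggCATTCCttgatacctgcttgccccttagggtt

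The Foxa2 window held an HNF1 match (bases 186 to 194, counted from the first base printed), a GATA match (bases 203 to 208) and a TEAD match on the other strand (bases 215 to 220). The Myo6 window held an AP-1 match at bases 20 to 26 and TEAD matches at bases 245 to 250 and 269 to 274. None of the 12 motifs was found in the 300 bp shown for Gata4 or Creb3l2. The corresponding window at Serpinh1, also without a match, lay wholly in exon sequence and is not shown.

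The regions were merged H3K4me1 intervals, and somewhat wider than DP regions at large. Their median width was 5127 bp (lowest 1227, highest 44802 bp), against 4338 bp for all 5591 DP regions. The median distance to the nearest protein-coding gene start was 23.2 kb. Judged at 1 point per region, 231 were in introns, 139 between genes, 11 in exons and 1 in a UTR. Within 5 kb of the nearest gene start lay 58, and beyond 100 kb 50. The regions were spread over 343 nearest genes. Neighbouring regions can overlap the same broad peak, and 18 regions shared their strongest H3K27ac peak of a DP or Pdgfra+ library with another region.

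H3K27ac, which chose the regions, was listed in all 3 DP libraries at 179 regions and in all 3 Pdgfra+ libraries at 224. By replicate, 98.7, 46.9 and 98.4% of the regions had a DP peak and 86.4, 93.5 and 74.9% a Pdgfra+ peak. In Oct4+ libraries the shares were 12.6, 46.6 and 0%. The rule thus did not demand full absence: 167 regions had no H3K27ac peak in any Oct4+ library, 204 had one in a single library and 11 in a pair whose peaks did not form a consensus region with them. Where Oct4+ replicate 2 had a peak, its median rank within that list was the 57.6th percentile of total signal, against the 92.1st for the 1053 DP active regions shared with Oct4+. H3K27ac was listed in all 6 DP and Pdgfra+ libraries and in none of Oct4+ at 53 regions.

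**Figure D1:**
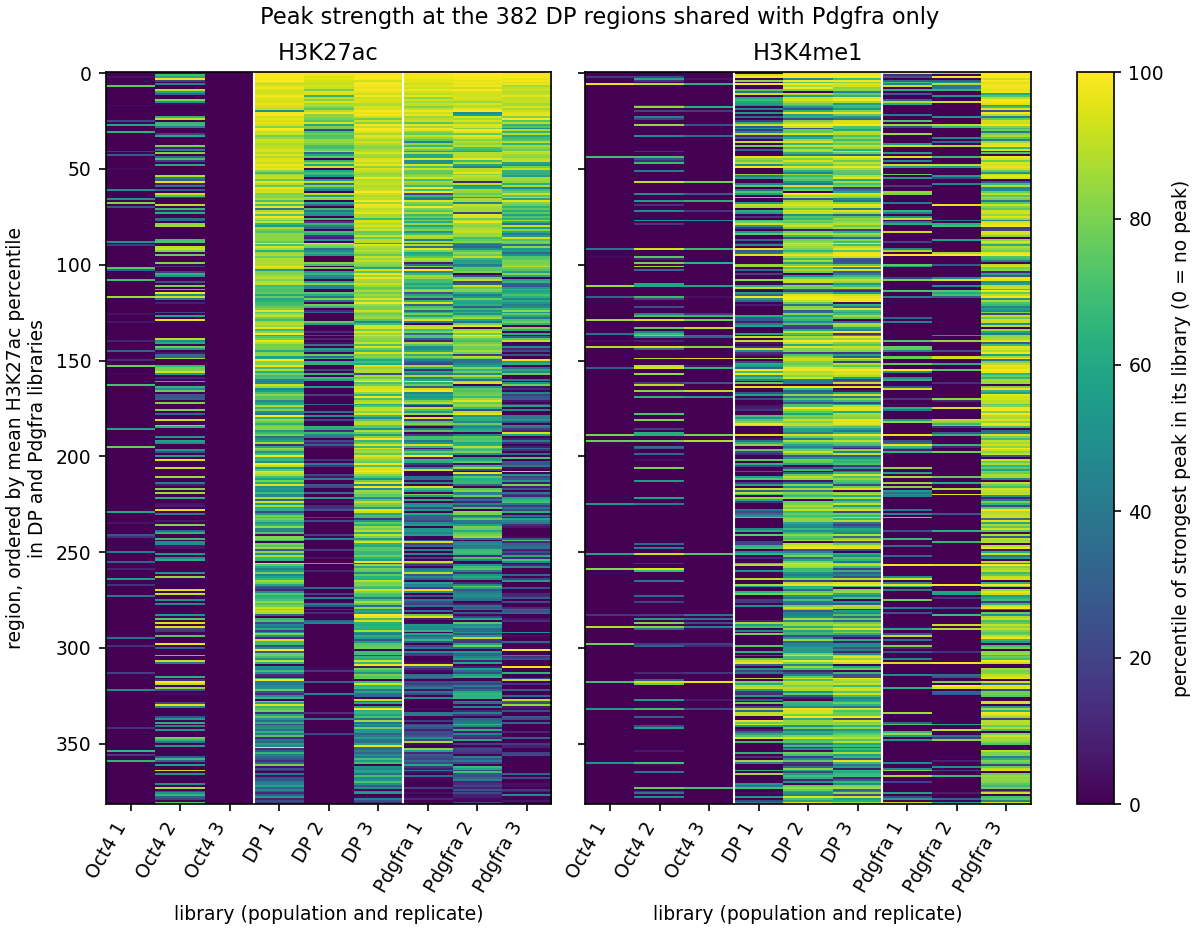
Percentile of the strongest overlapping peak, within its own library's list, at the 382 regions (rows, ordered by mean H3K27ac percentile in the DP and Pdgfra+ libraries) in 9 H3K27ac and 9 H3K4me1 libraries (columns, 3 replicates of each population); dark purple is 0, no listed peak. H3K27ac and DP H3K4me1 chose the rows, and Pdgfra+ H3K4me1 replicate 3 is filled at 92.7% of rows while no Oct4+ H3K4me1 library exceeds 26.4%.

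The rule was also applied to 2 replicates and read in the one left out. H3K27ac was then found in the left-out Pdgfra+ library at 89.5, 82.6 and 86.2% of the regions so chosen (replicates 1, 2 and 3), against 20.7, 29.8 and 24.6% of all DP regions. At DP active regions shared with Oct4+, picked from the same 2 replicates, the shares were 78.8, 69.2 and 89.5%. In the left-out Oct4+ library the shares of the regions chosen by the rule were 53.6, 69.9 and 2.75%. All DP regions there had 47.5, 61.8 and 19.7%, and those shared with Oct4+ 97.1, 98.1 and 57.7%. Thus in replicates 1 and 2, the long Oct4+ lists, the regions chosen by the rule had H3K27ac as often as DP regions at large or more often, and only in replicate 3 less often. With 2 replicates a consensus region needed a peak in both. With replicate 1 or 2 left out, Oct4+ H3K27ac thus excluded a region only where the short list of replicate 3 contributed a peak. These 3 readings share libraries and were not tested.

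Regions were ranked by the mean percentile of total signal (fragment coverage summed over a peak) in the 6 DP and Pdgfra+ H3K27ac libraries. The first 10 were nearest to or inside Gsn, Gata4, Creb3l2, Serpinh1, Col4a1, Krt18, Rhou, Fez2, Hs3st1 and Ube2h, with mean percentiles of 93.7 to 98.9. Total signal is not scaled to depth and is read within a library only. Values below are in the order of replicates 1, 2 and 3.

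Gsn encodes gelsolin, an actin-severing protein. The region in its intron, at chr2:35262997-35271436, had DP H3K27ac totals of 83684, 56068 and 149439 and Pdgfra+ totals of 115020, 52824 and 115241. Its Oct4+ totals were 0, 5515 and 0, the single peak lying at the 2.21st percentile of its list. H3K4me1, which in Pdgfra+ and Oct4+ was not used by the rule, was listed at 12666, 6845 and 46733 in Pdgfra+ and in no Oct4+ library.

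Gata4 encodes a zinc-finger factor that specifies primitive endoderm with GATA6. Its region, chr14:63333957-63350438, lay 62.3 kb upstream across 2 noncoding genes, with DP totals of 115781, 46599 and 119404 and Pdgfra+ totals of 108870, 63821 and 134611. Oct4+ H3K27ac was 0, 9080 and 0 there. H3K4me1 was 4818, 0 and 61245 in Pdgfra+ and 0 in all Oct4+ libraries, so that the populations did not separate in replicate 2.

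Both of these regions were just inside the rule, with an Oct4+ peak in exactly 1 library. Just outside it were a 9065 bp region at chr8:11314142-11323206, inside Col4a2 and 1.32 kb upstream of the Col4a1 start, and one in an intron of Epha2, a receptor tyrosine kinase, at chr4:141303576-141317335. The first had mean percentile 99.7 and Oct4+ H3K27ac totals of 0, 9608 and 0, the wider consensus region that it touched having peaks in at least 2 libraries. The second had mean percentile 99.2 and Oct4+ totals of 9882, 47290 and 0. In all, 655 regions were otherwise alike but overlapped Oct4+ H3K27ac, 305 of them in a consensus of exactly 2 libraries.

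Transcription factors of endoderm had regions at Creb3l2, Foxa3, Foxa2 and Tcf7l2, among others. The list of 20 such factors had 3 genes (15%) with a region within 20 kb of the TSS, Foxa2 and Foxa3 among them, beside 223 of all 21911 protein-coding genes (1.02%). Within 5 kb the list had 0 genes and within 50 kb 7 of 20, including Sox17 and Cited1. CREB3L2 is a membrane-bound factor that supports secretion. The 25542 bp region in an intron of Creb3l2, chr6:37387470-37413011, had H3K27ac totals of 112952, 35262 and 179817 in DP, 108515, 39984 and 134906 in Pdgfra+, and 6149, 8286 and 0 in Oct4+. Its H3K4me1 was listed in all 3 Pdgfra+ libraries (5041, 11495 and 154865) and in 2 of Oct4+ (5658 and 9499, with none in replicate 3).

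Foxa2, a pioneer factor of definitive and visceral endoderm, was the gene nearest to most regions, with 4 of them. Of these, 3 lay 5.71, 30.7 and 38.5 kb downstream, inside the noncoding gene 9030622O22Rik, and the fourth 66.8 kb upstream. The strongest, at chr2:148000530-148008513, had DP H3K27ac totals of 58367, 23800 and 47773, Pdgfra+ totals of 48890, 15696 and 52346 and Oct4+ totals of 0, 6993 and 0. H3K4me1 was listed at none of the 4 in any Oct4+ library and at all 4 in Pdgfra+ replicate 3, but in Pdgfra+ replicates 1 and 2 only at the upstream region (5532 and 4637). The region 5.71 kb downstream, chr2:148035979-148041255, instead had Oct4+ H3K27me3 totals of 0, 59910 and 225081.

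Tcf7l2, an effector of WNT signalling, had 3 nearest regions, 1 lying 23.1 kb upstream and 2 in introns 118 and 123 kb downstream of its start. The upstream region, chr19:55713769-55718755, had H3K4me1 in Oct4+ replicates 2 and 3 (20256 and 9015) as well as in Pdgfra+ replicates 2 and 3 (5217 and 19476). Ddah1, an enzyme that degrades methylated arginine, and Tnks, a poly-ADP-ribosylating enzyme acting on axin, were each nearest to 3. The Foxa3 region, downstream of the gene at chr7:19004527-19008555, had H3K27ac totals of 58926, 0 and 66607 in DP, 82092, 32401 and 67654 in Pdgfra+ and 0, 9341 and 0 in Oct4+.

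Basement membrane genes had some of the longest regions. Within 20 kb of a TSS, 3 of 20 genes of this list (15%) had one, Lamb1, Nid2 and Serpinh1, and 7 of 20 did within 50 kb. Serpinh1 encodes the collagen chaperone HSP47. The Serpinh1 region, chr7:99347683-99352076, reached DP totals of 90620, 40303 and 103720 and Pdgfra+ totals of 91222, 39066 and 93405, but 24300 in Oct4+ replicate 2, and its strongest DP peak had its maximum outside the region, towards the gene start.

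Col4a1 and Col4a2 encode the collagen IV chains of basement membrane and are transcribed head to head. One region spanned 36233 bp in the introns of Col4a1 (chr8:11250499-11286731), with DP H3K27ac of 140489, 34611 and 61723, Pdgfra+ of 86315, 30307 and 114045 and Oct4+ of 0, 5956 and 0. Another spanned 44802 bp in Col4a2 (chr8:11356852-11401653), the widest of the 382, with Oct4+ totals of 8938, 8944 and 0. H3K4me1 was listed in all 3 Pdgfra+ libraries at both. In Oct4+ it was found in replicate 2 at both (9067 and 21422) and in replicate 3 at Col4a2 (8280).

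Lamb1, encoding a laminin beta chain, had 3 regions within 20 kb, from 14.8 kb upstream to 6.3 kb downstream of its TSS. No Oct4+ library listed H3K4me1 at any of them, and H3K27ac was listed only once (6376, replicate 1, at the intronic region). The most upstream, chr12:31244925-31250459, had Pdgfra+ H3K4me1 of 11728, 8625 and 45839. Nid2, encoding nidogen, had a weak region, with a mean percentile of 11.1.

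Of 20 genes for endocytosis and transport, 4 (20%) had a region within 20 kb: Myo6, Snx2, Lrp2 and Ctsl. Lrp2 encodes megalin, the large uptake receptor of the visceral endoderm. Its region, chr2:69579912-69583573, in an intron 2.5 kb from the start, had H3K27ac of 47453, 0 and 29427 in DP, 33465, 0 and 32715 in Pdgfra+ and 0 in all Oct4+ libraries, with no H3K4me1 peak in either sorted single-positive population. Myo6 (chr9:80166816-80174825), an actin motor of endocytic vesicles, had H3K27ac of 42873, 0 and 56440 in DP, 55531, 13639 and 55122 in Pdgfra+ and 0 in Oct4+. The regions near Snx2, a sorting nexin, and Ctsl, a lysosomal protease, likewise had no H3K27ac peak in any Oct4+ library.

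The other lists had fewer. None of 20 secreted and surface proteins of visceral and parietal endoderm had a region within 20 or 50 kb. Among 30 receptors and signalling genes only Socs3, an inhibitor of JAK/STAT signalling, had one within 20 kb (3.33%), and another lay inside the long Fgfr2 gene, 867.7 kb from the annotated start.

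For pluripotency, 2 of 25 genes (8%) had a region, Klf4 and Lin28a. Klf4, a reprogramming factor, had one 7.7 kb upstream (chr4:55540208-55544218) with H3K4me1 of 9219, 9808 and 24754 in Pdgfra+ and none in Oct4+. In the trophectoderm list, 2 of 25 (8%), Krt8 and Krt18, shared a single region. These keratins form the filaments of simple epithelia, and the region, chr15:102022364-102026999, had no Oct4+ H3K27ac or H3K4me1 peak. It carried DP H3K27ac of 64176, 30640 and 93872 and Pdgfra+ H3K27ac of 86716, 36464 and 83377, and Pdgfra+ H3K4me1 of 6545, 5241 and 27110.

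Beside the DP active regions shared with Oct4+, the counts did not all point one way. Those 1053 regions lay within 20 kb of 3.71% of all protein-coding genes, but of 1 of 20 transcription factors, 6 of 20 basement membrane genes, 5 of 20 endocytosis genes and 7 of 30 receptors and signalling genes. The 415 regions acetylated in DP alone lay near 2 of 20 transcription factors, Gata4 and Gata6. These are counts of few genes from lists put together with results of these data known, and no enrichment was tested.

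**Figure D2:**
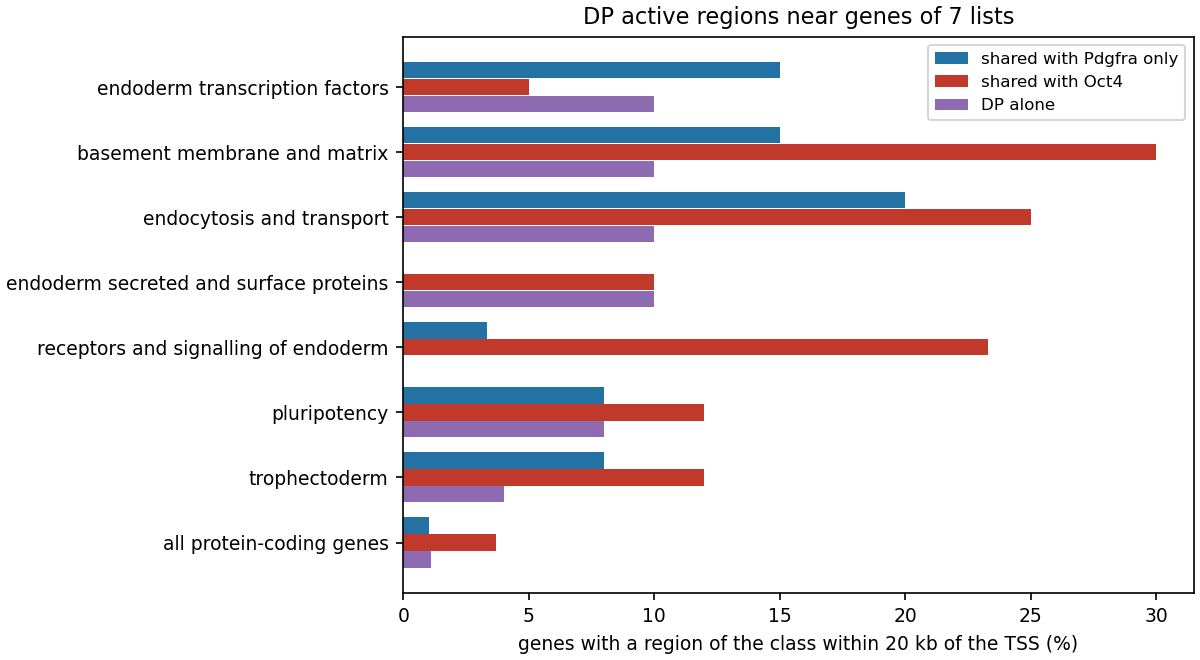
Share of the genes of 7 lists, and of all protein-coding genes, with a region of each of 3 classes of DP active region within 20 kb of the TSS (x axis, percent; bars start at 0). Regions shared with Pdgfra only lie near 15% of endoderm transcription factors and 3.33% of receptors and signalling genes; those shared with Oct4 lie near 5% and 23.3%.

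H3K4me1 of the single-positive populations was not used by the rule. The regions were, however, chosen on H3K27ac of the same populations, and an active enhancer can carry both marks. The H3K4me1 comparison of Pdgfra+ with Oct4+ is therefore not independent of the rule. In the Oct4+ libraries 6.02, 26.4 and 11.3% of the 382 regions had an H3K4me1 peak, a mean of 14.6% ± 10.6 (SD, n = 3). Pdgfra+ libraries gave 34.3, 25.9 and 92.7%, a mean of 51.0% ± 36.4 (SD, n = 3). Pdgfra+ replicate 2, the shortest list with 1074 peaks, lay just below Oct4+ replicate 2, the longest with 16057, so that the groups overlapped. The difference of 36.4 percentage points was not larger than the spread between libraries (exact two-sided permutation test over 20 splits, p = 0.2, adjusted p = 0.250 over 5 tests, smallest possible p 0.1), and fell to 15.5 points without Pdgfra+ replicate 3.

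With every library cut to its 1074 strongest H3K4me1 peaks, the shares were 2.36, 1.31 and 1.31% in the Oct4+ libraries, against 26.4, 25.9 and 32.7% for Pdgfra+. The groups then did not overlap, at the smallest p that the design allows (exact permutation p = 0.1, adjusted p = 0.1). This comparison, too, is not independent of the choice on H3K27ac. Among the 167 regions without any Oct4+ H3K27ac peak, Oct4+ H3K4me1 was listed at 2.40, 16.2 and 5.39% and Pdgfra+ at 28.1, 21.6 and 90.4%.

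As consensus regions, H3K4me1 of Pdgfra+ overlapped 174 of the 382 regions (45.5%), against 20.1% of all 5591 DP regions, and that of Oct4+ 50 (13.1%), against 29.5%. Pdgfra+ consensus H3K4me1 without that of Oct4+ was found at 149 regions, the reverse at 25, both at 25 and neither at 183. These were 39.0, 6.54, 6.54 and 47.9%, against 12.9, 22.3, 7.17 and 57.6% of all 5591 DP regions. Neither was found at 61.2% of the regions of DP alone and 31.1% of those shared with Oct4+. The 183 regions with neither had reproducible H3K27ac in Pdgfra+ cells without reproducible H3K4me1 in either single-positive population. Pdgfra+ replicate 3 alone, with a list of 10620 peaks, had an H3K4me1 peak at 354 of the 382 regions.

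The contrast with DP active regions shared with Oct4+ was made within each library, where the length of its list is common to both classes. In the Oct4+ libraries H3K4me1 was less frequent at the 382 regions than at the 1053 by 25.9, 47.4 and 40.9 points in the 3 replicates, with shares of 31.9, 73.9 and 52.1% at the latter. In the Pdgfra+ libraries it was more frequent by 4.38, 5.12 and 7.48 points. The mean differences were -38.1 ± 11 points in Oct4+ and 5.66 ± 1.62 in Pdgfra+ (SD, n = 3 each). The gap was 43.7 points, and 20.1 points with 1074 peaks per library. Both classes were chosen on the H3K27ac of Oct4+ and Pdgfra+ cells, so the gap and its direction are a description without a test. Regions acetylated in DP alone had Oct4+ H3K4me1 shares of 6.02, 25.3 and 12%, close to those of the 382.

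**Figure D3:**
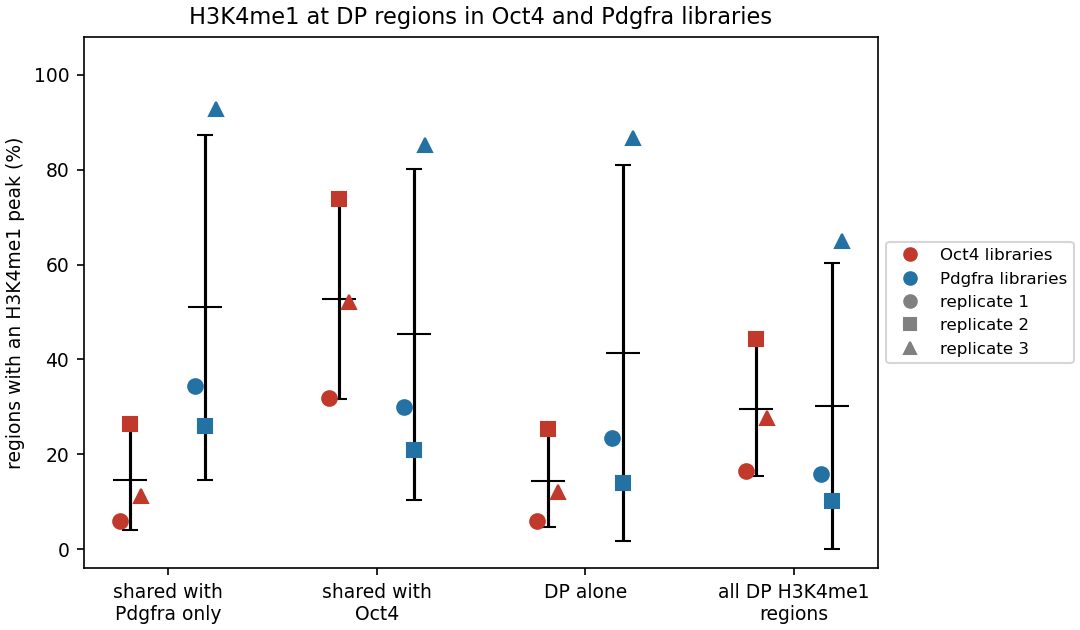
Share of regions with a listed H3K4me1 peak (y axis, percent) in each Oct4+ (red) and Pdgfra+ (blue) library, for the 382 regions shared with Pdgfra only, the 1053 shared with Oct4, the 415 of DP alone and all 5591; marker shapes are replicates, and bars give the mean and SD of 3 libraries. Oct4+ shares are 6.02 to 26.4% in the first class and 31.9 to 73.9% in the second.

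Repressive marks were rare at the regions. An H3K27me3 peak was listed at 0.785, 1.31 and 6.28% of them in Oct4+ and at 0, 0 and 0.524% in Pdgfra+. Means were 2.79% ± 3.03 and 0.175% ± 0.302 (SD, n = 3), a difference of -2.62 points that left no overlap between the groups (exact two-sided permutation p = 0.1, adjusted p = 0.167). Within a replicate block, exact permutation gave p = 0.250 and adjusted p = 0.417. The regions were chosen on H3K27ac of these populations, a mark on the same residue, so this comparison is not independent of the rule. Over all 5591 regions the shares were also higher in Oct4+, at 0.662, 1.43 and 5.29% against 0.107, 1.02 and 3.83%. Consensus H3K27me3 of Oct4+ overlapped 9 regions (2.36%), near the 2.61% of all DP regions, and that of Pdgfra+ 1 region (0.262%), against 1.99%.

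The 9 regions with Oct4+ consensus H3K27me3 included those nearest to Gadd45g, Nsun2, Foxa2, Ube2v1, Grik3, Hs3st1, Podxl and Rhpn2, genes named after their values were seen. The region 2.78 kb downstream of Gadd45g, a stress-response gene (chr13:51849460-51855012), had Oct4+ H3K27me3 totals of 12343, 108951 and 474551. A 35114 bp region in Podxl (chr6:31527828-31562941), which encodes a sialomucin of the apical surface, had 12307, 65537 and 298048. A peak was listed in more than 1 Oct4+ library at 6 of the 9, and in all 3 at Gadd45g and Podxl.

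H3K9me3 was listed at 5.24, 4.19 and 1.83% of the regions in Oct4+, 3.40, 6.81 and 3.93% in DP and 9.16, 1.83 and 4.19% in Pdgfra+, and the exact omnibus permutation test over 1680 assignments made no call (p = 0.832, adjusted p = 0.832). With equal numbers of peaks per library the means were 0.960% in Oct4+, 2.18% in DP and 2.71% in Pdgfra+, and the call changed (exact permutation p = 0.0143, adjusted p = 0.0357). Consensus H3K9me3 overlapped 15, 19 and 21 regions (3.93, 4.97 and 5.5%), against 5.37, 4.92 and 4.85% of all DP regions.

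H3K27me3 was listed at promoters of the 343 nearest genes more often than at promoters at large in every Oct4+ library, and less often in every DP and Pdgfra+ library. With 1 TSS per gene, 7.87, 14.3 and 27.1% of the nearest genes had a promoter peak in Oct4+, against 4.58, 8.74 and 15.8% of all 21911 genes. In DP the shares were 11.1, 15.7 and 13.4% against 12.1, 17.7 and 13.8%, and in Pdgfra+ 1.17, 2.62 and 6.71% against 2.09, 4.92 and 13.3%. The differences averaged 6.72 ± 4.14 points in Oct4+, -1.11 ± 0.805 in DP and -3.27 ± 2.95 in Pdgfra+ (SD, n = 3 each). The 3 populations differed with an exact omnibus permutation p of 0.0107, and an adjusted p of 0.0536 missed the threshold of 0.05. The genes were those nearest to regions chosen on H3K27ac of all 3 populations and on H3K27me3 of DP. This test is therefore not independent of the rule. With 1 library left out in turn the adjusted p ran from 0.0357 (without Pdgfra+ replicate 1) to 0.167 (without DP replicate 3 or Pdgfra+ replicate 3), and within a replicate block it was 0.278 (exact permutation tests). With equal numbers of peaks per library the test of the 3 populations passed the threshold (exact omnibus permutation adjusted p = 0.0357). The Pdgfra+ minus Oct4+ difference was then -2.94 points, against -9.99 with full lists, and was not tested by itself.

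**Figure D4:**
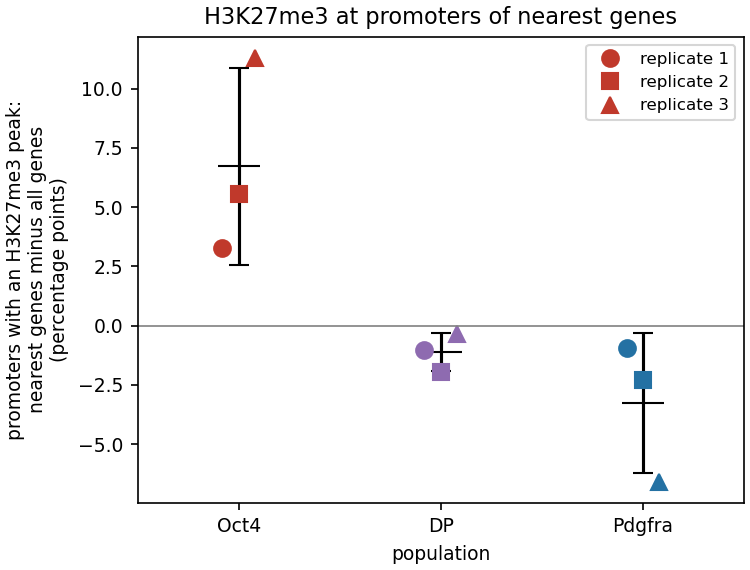
Share of the 343 nearest genes with an H3K27me3 peak at the promoter minus the share of all protein-coding genes (y axis, percentage points), by library; marker shapes are replicates, and bars give the mean and SD of 3 libraries. Oct4+ libraries lie at 3.29 to 11.3 points and all DP and Pdgfra+ libraries below 0.

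By consensus regions, H3K27me3 marked the promoters of 61 of the 343 genes in Oct4+ (17.8%, against 10.3% of all genes), 47 in DP (13.7%, against 15.7%) and 12 in Pdgfra+ (3.50%, against 7.65%). Of the 857 genes nearest to regions shared with Oct4+, 7.35% had it in Oct4+, 10.2% in DP and 3.38% in Pdgfra+, so that shares below those of all genes in DP and Pdgfra+ were common to both classes. Of the 343 genes, 27 (7.87%, against 1.28% of all genes) had promoter H3K27me3 in Oct4+ and in neither other population. Named after their values were seen, these 27 included the endoderm factors Gata6, Sox17 and Foxa2, the basement membrane genes Col4a1, Col4a2 and Lamb1, P3h2, a collagen prolyl hydroxylase, and Lrp2. Promoter H3K27ac was present in DP and Pdgfra+ at 17 of the 27. Over the 343 genes it was found at 65.3% in DP and 47.2% in Pdgfra+, and over all genes at 31.1 and 19.0%. Foxa2, Lamb1, Lrp2 and P3h2 had no Oct4+ promoter H3K27ac, whereas Col4a1, Col4a2 and Gata6 had it in Oct4+ as well. Sox17 had it in DP alone. H3K27ac was at the promoter in DP and Pdgfra+ without Oct4+ for 52 nearest genes (15.2%), beside 408 of all genes (1.86%), a mark that the rule used at the regions themselves.

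Gata6 and Sox17 had their regions farther out. The regions nearest to Gata6 lay 101 and 130 kb upstream, and the one nearest to Sox17 21.1 kb downstream at chr1:4468317-4476213. The Sox17 region had H3K27ac of 27293, 16770 and 42596 in DP, 41819, 14268 and 44137 in Pdgfra+ and 0 in every Oct4+ library. Its H3K4me1 was 0, 0 and 20394 in Pdgfra+ and 0 in Oct4+. No Oct4+ library listed H3K4me1 at either Gata6 region.

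Sequence motifs of endoderm and epithelial factors were sought in windows of 1000 bp, on either strand, centred on the strongest DP H3K27ac peak maximum. The 12 motifs were AGATAA for factors of the GATA family, SOX (AACAAT), FOXA (TGTTTAC), HNF4 (CAAAGTCCA), HNF1 (GTTAATNAT), TEAD (GGAATG), AP-1 (TGANTCA), STAT (TTCCNGGAA), the octamer bound by OCT4 (ATGCAAAT), ESRRB (TCAAGGTCA), TFAP2 (GCCNNNGGC) and KLF (CCACACCC), and matches of different motifs may overlap. A match is a run of letters and not a binding site, and shares of regions are given without a test.

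GATA matches were found in 59.9% of the 382 windows, against 43.8% of the 1053 shared with Oct4+ and 61.0% of the 415 of DP alone. SOX (47.4 against 39.4%), TEAD (61.8 against 52.5%) and AP-1 (41.4 against 31.7%) matches were also more frequent than in the regions shared with Oct4+. KLF (11.5 against 17.7%), ESRRB (1.31 against 3.04%) and TFAP2 (30.1 against 37.6%) matches were less frequent. Centred on the DP H3K4me1 maximum, TFAP2 was in 28.0 against 29.5%, ESRRB in 2.62 against 3.8% and KLF in 12.6 against 20.3%. FOXA (15.7 against 14.2%), HNF4 (2.62 against 2.18%) and octamer (3.40 against 4.08%) shares were close to each other. HNF1 stood at 5.24 against 3.23% and STAT at 5.5 against 3.89%. In the regions of DP alone, centred on the H3K27ac maximum, SOX was in 45.8%, TEAD in 53.5% and AP-1 in 27.7%. KLF was in 17.3%, ESRRB in 3.37% and TFAP2 in 27.7% of them.

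Base composition and position bear on these shares. Median GC content was 48.5% in the windows of the 382 regions and 50.4% in those shared with Oct4+, and the H3K27ac maximum lay inside the H3K4me1 region at 85.1% of the former and 75% of the latter. When the maximum was inside, GATA was found in 64.0 against 51.3%, and TFAP2 in 25.2 against 32.2%. All 5591 DP regions, in windows centred on the DP H3K4me1 maximum, had GATA in 59.8%, SOX in 43.5%, TEAD in 50.9% and AP-1 in 29.0%, and the 382 regions centred in the same way had 66, 51.3, 59.4 and 41.9%. The part of base composition in these shares was not tested. In 300 bp windows, GATA was in 28.0% of the 382 regions, 20.2% of those shared with Oct4+ and 11.2% of 32851 RefSeq promoters of the same length on GRCm38.p6, and AP-1 in 19.1, 16.1 and 7.81%.

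In the 382 regions the GATA, SOX, TEAD, AP-1, TFAP2 and HNF1 matches were densest in a bin beside the H3K27ac maximum. TFAP2 reached 7.85 per 100 there, and HNF1 had only 5 matches in its bin. FOXA had 12 matches in such a bin and 12 in the bin centred 150 bp to the left. Octamer, ESRRB, HNF4, KLF and STAT matches were densest elsewhere. GATA matches numbered 13.6 and 12 per 100 regions in the 100 bp bins on either side of it, and 6.28 and 8.12 in the outermost bins. The regions shared with Oct4+ had 6.74 and 7.31 at the maximum and 4.75 and 5.98 at the edges. SOX reached 11.3 per 100 in the bin just right of the maximum, against 5.98 in the regions shared with Oct4+ and 8.67 in those of DP alone. TEAD (14.4 against 12.1, left of the maximum) and AP-1 (9.42 against 5.98, right of it) were concentrated there both in the 382 regions and in those shared with Oct4+.

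**Figure D5:**
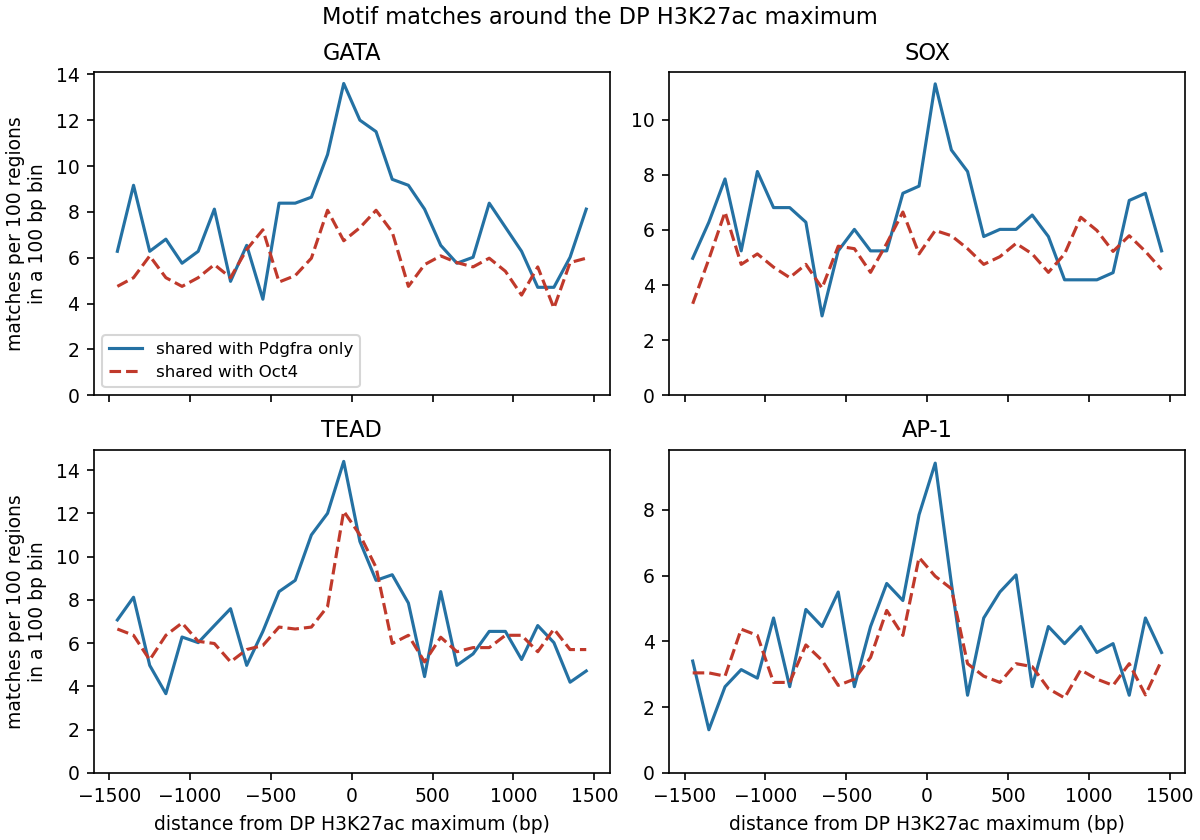
Matches per 100 regions in 100 bp bins (y axis, from 0) by distance from the DP H3K27ac maximum in bp (x axis), for GATA, SOX, TEAD and AP-1, in the 382 regions shared with Pdgfra only (solid blue) and the 1053 shared with Oct4 (dashed red). GATA peaks at 13.6 per 100 in the former and stays at or below 8.07 in the latter. Regions of DP alone, not drawn, reach 14.2 for GATA.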

How the data were processed

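CUT&Tag was performed by the authors on 3 sorted nEnd populations, 4 marks and 3 replicates, giving 36 lists. Of 39 samples named by the labels, 3 IgG controls were not used here. Per the labels, mm10 was the build, with bcl2fastq 2.19.1, Bowtie2, SAMtools 1.12, deepTools, SEACR and bedtools 2.26.0 in the processing notes. The deposited peaks, called by the authors with SEACR in stringent mode per library against IgG, give intervals with total and maximum signal (coverage) as whole numbers not scaled to depth. Depth is unknown, so no signal model was fitted, and a library's value is the share of regions that overlap a listed peak by at least 1 bp. Every peak lay within GRCm38 chromosome ends, and 18.5 to 77.1% of H3K27ac peaks per library overlapped a TSS, against 7.41 to 14.7% after a 500 kb shift.

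Annotation was the basic set of GENCODE vM21. The members and gene lists were chosen with earlier results of these data known. Named regions were the 10 of highest mean percentile, those within 20 kb of or inside a gene of 7 lists, those of the 5 genes nearest to most members, and those at the edge of the rule. Some items that this selection names are not reported here. The library was the unit of all 5 tests, which were exact permutations with Benjamini-Hochberg adjustment over the 5. The H3K4me1 contrast between classes entered that adjustment but is given as a description, since its classes were chosen on H3K27ac. The H3K4me1 and H3K27me3 tests between Pdgfra+ and Oct4+ at the regions are likewise not independent of that choice. Nor is the promoter H3K27me3 test, whose genes were taken through regions chosen on H3K27ac and on DP H3K27me3. Overlaps (Python 3.11.15, NumPy 2.4.6, pandas 2.3.3, pysam 0.24.0, Matplotlib 3.10.9) were checked against bedtools 2.31.1, and the rule, tests and motif search were tested on simulated data. Alternatives varied the consensus, overlap, list length, promoter and window definitions, and left out each library.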

Additional observations from a re-analysis of the deposited data

Results flagged for a closer look

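The H3K4me1 contrast between the 382 regions and the DP active regions shared with Oct4+ went in opposite directions in the sorted populations: every Oct4+ library had a lower share at the 382 regions and every Pdgfra+ library a higher one, with a gap of 43.7 points. Both classes were chosen on the H3K27ac of these populations, and the gap is given as a description. The 415 regions of DP alone had Oct4+ shares of 6.02, 25.3 and 12%, close to the 6.02, 26.4 and 11.3% of the 382. The list lengths, 4127, 16057 and 7443 peaks in Oct4+ and 1723, 1074 and 10620 in Pdgfra+, are common to both classes within a library.

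H3K27me3 at promoters of the nearest genes was above that of all promoters in every Oct4+ library and below it in every Pdgfra+ library. The Pdgfra+ minus Oct4+ difference was -9.99 points. The exact omnibus permutation test of the 3 populations gave p = 0.0107 and adjusted p = 0.0536, and within a replicate block adjusted p = 0.278. The genes were taken through regions chosen on H3K27ac and on DP H3K27me3, so this test is not independent of the rule. In both single-positive populations the replicate with the longest H3K27me3 list, replicate 3 (5785 peaks in Oct4+ and 6151 in Pdgfra+), gave the value farthest from 0. With equal numbers of peaks per library the differences from all promoters were 1.59, 1.06 and 2.60 points in Oct4+ and -0.924, -0.652 and -2.01 in Pdgfra+. The gap was -2.94 points, with the same directions and a smaller size. The exact omnibus permutation test of the 3 populations then gave adjusted p = 0.0357, and the gap was not tested by itself.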

How the results depend on the processing

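The rule, which gave 382 regions, gave 175 with a consensus of 3 libraries, 184 with the 50% strongest peaks, 109 with equal numbers of peaks per library, 167 without any Oct4+ H3K27ac peak, and 109 to 385 without a replicate number (109 without replicate 3). Of the 109 regions found with equal numbers, 37 overlapped one of the 382. With promoters of all annotated transcripts, chosen after seeing the data, it gave 346. Among the tests, 2 calls appeared in exact permutation tests with equal numbers of peaks: H3K9me3 at the regions (Pdgfra+ minus Oct4+ 1.75 points, adjusted p = 0.0357) and promoter H3K27me3 (-2.94 points, adjusted p = 0.0357). The promoter test is not independent of the rule. Leaving out Pdgfra+ replicate 1 gave promoter H3K27me3 an adjusted p of 0.0357; over the 9 libraries left out in turn, the difference ran from -11.7 to -7.69 points and the adjusted p from 0.0357 to 0.167. The H3K9me3 difference reversed with at least 50% of a region covered (-0.611 points) and without Pdgfra+ replicate 1, the libraries left out giving -0.742 to 2.92. Over all alternatives the other tests kept their direction without a call: H3K4me1 15.5 to 48.9 points, H3K4me1 against regions shared with Oct4+ 20.1 to 49.8, and H3K27me3 -3.99 to -0.873.

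Exact permutation within a replicate block made no call: p = 0.5 (H3K4me1), 0.250 (H3K27me3), 0.806 (H3K9me3) and 0.0556 (promoters); the H3K4me1 contrast of 43.7 points is not tested. Correlations of deviations between same-numbered libraries were -0.00290 to 0.00719 for H3K4me1 and -0.259 to 0.0873 for H3K9me3, and those numbers were not taken as pairs. For H3K27me3 the 6 pairs with DP gave -0.163 to 0.0571, but the Oct4+ and Pdgfra+ pairs gave 0.340, 0.139 and 0.283. For H3K27me3 the numbers may thus pair the libraries, and at the regions the value within the block applies. The H3K27me3 lists of both populations also lengthened from replicate 1 to 3 (1629, 2948 and 5785 peaks in Oct4+, 1143, 2841 and 6151 in Pdgfra+). The part of list length in these correlations was not tested. The promoter test used the same libraries, so its value within the block (exact permutation adjusted p = 0.278) is to be read beside the unpaired one. In 400 bp windows, fewer regions held a match by construction: GATA 35.6%, SOX 27.2%, FOXA 10.2%, HNF1 2.62%, TEAD 36.4%, AP-1 23.6%, STAT 2.36%, octamer 1.31%, TFAP2 16.5% and KLF 3.93%. Centring on the DP H3K4me1 maximum gave GATA 66%, and requiring the H3K27ac maximum inside gave TFAP2 25.2%, both chosen after seeing the data. Unknown depth limits every statement of absence.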

Other observations

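H3K4me1 was listed in all 3 Pdgfra+ libraries and in no Oct4+ library at 44 of the 382 regions (11.5%). The share of all DP regions with this pattern is not given. In 2 or more Pdgfra+ libraries and no Oct4+ library, H3K4me1 was listed at 34.8% of the 382 and 10.4% of all DP regions. It was so at 21.4% of regions of DP alone and 8.55% of those shared with Oct4+, classes also chosen on H3K27ac. By H3K27ac rank the 44 were led by regions at Gsn, Krt18, Fez2, a kinesin adaptor, Ube2h, an E2 ubiquitin-conjugating enzyme, Mycn, a MYC family factor, and Shroom3, an organizer of apical actin. The Mycn region lay 50.5 kb upstream in an intron of a noncoding gene (chr12:12992401-12997094), and the Shroom3 region in an intron 82.0 kb from the start (chr5:92765391-92776431).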
